A study of Homo sapiens with 5 samples.

Results

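The cells described here are the 288 untreated MDA-MB-468 cells with the highest level of 6 interferon-induced transcripts after 72 h of culture. They were chosen by a score: the summed unique molecular identifiers (UMIs, each standing for a captured RNA molecule) of ISG15, BST2, IFI6, IFI27, IFIT1 and IFIT3, per 10000 UMIs of the cell. Cells of that library with at least 5000 UMIs, at least 1000 detected genes and at most 20% mitochondrially encoded UMIs were ranked. The top 10% (288 of 2885 cells) are called top-score cells, the bottom 50% (1442 cells) are the compared cells, and 1155 cells lay between. The 6 genes define the sets, so their difference is a description, and they were left out of every other value. Genes outside the score that interferon also induces were only 1.08-fold higher in the top-score cells (exact 95% interval 1.06 to 1.10). The data therefore do not bear out a name such as "interferon-high" beyond the score genes themselves, and the cells are called by their rule.

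MDA-MB-468 is an established human breast cancer line of basal, triple-negative type. The study profiled 5 libraries of it by droplet sequencing, 1 library per group: untreated at 0 h, PF0517515 for 6 h, PF0517515 for 72 h, untreated at 72 h, and recovery cells taken after 72 h of PF0517515. The labels abbreviate that treatment as an inhibitor of ACC, acetyl-CoA carboxylase, the enzyme that commits acetyl-CoA to fatty acid synthesis. They give no dose, no vehicle for the untreated cells and no length of recovery. All cells were detached with trypsin. The filters left 14911 cells in all, with median depths of 26954.5 to 42464 UMIs per cell in the 5 libraries. With a single library per group and cells that are not replicates, no difference below has a test. Intervals are exact 95% intervals of a ratio of summed counts, cover counting error only, and do not cover the spread between cells or cultures. Of the 6 epithelial markers EPCAM, CDH1, KRT7, KRT8, KRT18 and KRT19, summed levels were 9097 CPM (UMIs per 1000000 UMIs) in the top-score cells and 7268 CPM in the compared cells. Only CDH1 went the other way, at 37.9 and 44.0 CPM. The 4 immune markers PTPRC, CD3E, CD68 and LYZ summed to 3.42 and 3.38 CPM, and both haemoglobin genes were at 0.

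Interferons of types I and III bind receptors that activate the kinases JAK1 and TYK2. A complex that holds IRF9 then binds the interferon-stimulated response element in promoters and induces antiviral genes. Interferon gamma has a receptor of its own, and NF-kB is switched on by inflammatory cytokines; both also raise genes of the class I antigen presentation machinery. ISG15 is a ubiquitin-like protein that is conjugated to other proteins, BST2 (tetherin) holds budding virions at the cell surface, IFIT1 and IFIT3 bind viral RNA as a complex, and IFI6 and IFI27 are small membrane proteins of the antiviral response.

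The score genes share a promoter feature that the rule did not use. In RefSeq promoter sequences (GRCh38.p14), the 250 bases before the listed transcription start of each of the 6 genes held at least 1 copy of the letters GAAANNGAAA, the core of the response element, on either strand. Of all 35116 promoters in that table, 3.02% held it. The 6 genes were picked as interferon-induced, so the difference from that share is no independent support. Of other genes named below, IFITM3, ISG20, TAP1 and B2M held at least 1 copy, and MX1, OAS1, HLA-B and PSMB9 held none. The stretches are shown because they are the shared regulatory sequence of the genes that chose the cells. They run 5′ to 3′ on the gene's strand, capitals mark each match (TTTCNNTTTC where it lies on the other strand), and matches may overlap. A match is a description of the letters and not a measured binding site.
ISG15 (chr1:1013374-1013409, + strand): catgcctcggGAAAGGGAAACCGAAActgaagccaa
BST2 (chr19:17405735-17405770, - strand): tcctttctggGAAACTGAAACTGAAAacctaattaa
IFI6 (chr1:27672266-27672358, - strand): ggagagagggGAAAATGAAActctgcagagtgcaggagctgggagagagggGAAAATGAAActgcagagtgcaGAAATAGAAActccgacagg
IFI27 (chr14:94110618-94110660, + strand): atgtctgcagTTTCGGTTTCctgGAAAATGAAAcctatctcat
IFIT1 (chr10:89392497-89392539, + strand): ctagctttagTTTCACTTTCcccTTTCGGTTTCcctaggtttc
IFIT3 (chr10:89327831-89327894, + strand): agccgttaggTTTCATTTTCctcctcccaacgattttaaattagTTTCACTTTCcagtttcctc
ISG15 and BST2 each held 2 overlapping copies, the first starting 113 and 130 bases before the start, and IFI6 held 3 copies. Of 5524 measured genes with a promoter in the table, 122 (2.21%) held the letters. Their median log2 ratio of top-score over compared cells was 0.02, against -0.08 for genes without them, and none of the 122 was 1.5-fold higher, where 0.265% of all measured genes were.

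The score was a continuous range with no gap at the cut. The lowest top-score cell had 3.66 and the highest cell outside had 3.656 score UMIs per 10000. The 10th lowest score inside was 3.70 and the 10th highest outside 3.64. Scores ran from 0 to 10.2, with medians of 4.43 in the top-score cells, 2.47 between and 1.18 in the compared cells. A top-score cell carried a median of 12 score UMIs (3 to 49) and a compared cell a median of 3 (0 to 19). Losing 1 UMI would have put 89 of the 288 top-score cells (30.9%) below the cut, and 129 other cells would have reached it with 1 more. When cells were thinned to 5000 UMIs before scoring, 115 of the 288 (39.9%) were again in the top 10%. Thinned scores are small whole numbers of UMIs, and 729 cells had 2 or more. Many cells therefore tied, and ties were broken by the deposited order of cells.

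**Figure D1:**
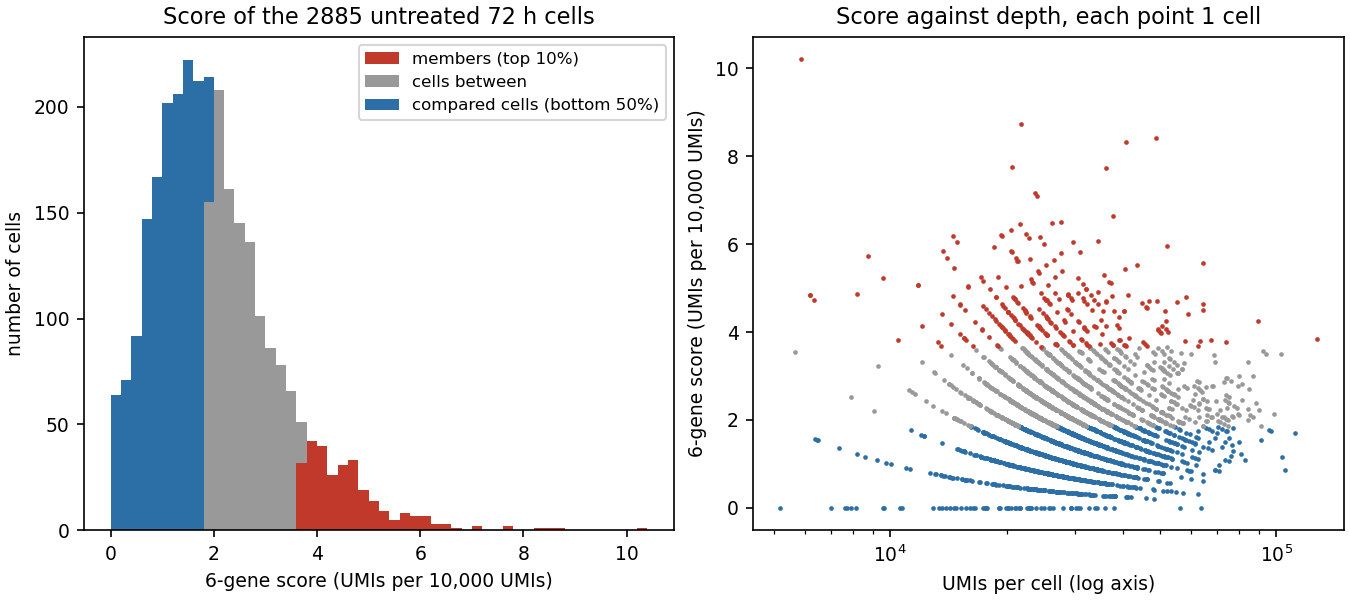
Left, number of untreated 72 h cells by 6-gene score (UMIs per 10000 UMIs), stacked by set. Right, score against UMIs per cell (log axis), each point 1 cell. The top-score cells form the upper tail, from 3.66 to 10.2, with no gap below them, and the curved lines are cells with the same whole number of score UMIs.

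ISG15 and BST2 carried the score. ISG15 gave 2070 of the score UMIs of the top-score cells (55.3%) and lay at 253, 146 and 71.2 CPM in the top-score, intermediate and compared cells. BST2 gave 34.5% and lay at 158, 83.2 and 31.5 CPM. IFIT3 lay at 24.2 CPM in the top-score cells, IFIT1 at 10.5, IFI6 at 9.15 and IFI27 at 2.44. All 288 top-score cells had an ISG15 UMI and 263 had one of BST2, but only 19 had one of IFI27. In the 2543 cells of at least 20000 UMIs, thinned to 20000 each, the 6 genes had a mean of 4.05 UMIs per cell and a variance 1.70 times the mean. Across those cells the Pearson correlation of ISG15 with BST2 was 0.06, of ISG15 with the other 4 genes 0.09, and of BST2 with the other 4 genes 0.04. In the same cells ISG15 had a variance 1.51 times its mean and BST2 1.68 times. Counting error in sparse counts lowers such correlations, how far was not tested, and no p is given. When cells were ranked by ISG15 alone and by BST2 alone, the 2 top sets of 288 cells shared 39 cells (13.5% of each). Each set is the top 10% of cells, so unrelated rankings would share about 10% of each.

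The top-score cells were somewhat shallower. Their median depth was 25287 UMIs and 5672 genes, against 30022.5 UMIs and 6386 genes in the compared cells. Median mitochondrially encoded shares were 6.03% and 6.26%. MALAT1, a nuclear RNA, took a median of 0.667% of UMIs per top-score cell and 0.941% per compared cell. The deepest top-score cell had 127361 UMIs. Doublets were not removed. None of the 288 barcodes occurred among the kept cells of another library, and pairs of libraries shared 0 to 7 barcodes.

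Outside the score few genes were higher and more were lower. Of 6786 genes at 20 CPM or more in the top-score or compared cells, 18 were at least 1.5-fold higher (0.265%) and 164 at least 1.5-fold lower (2.42%). The median gene had a log2 ratio of -0.08, and 37.4% of genes were above 0. Scaled by the median of ratios, which moves the median gene to 0, the counts were 30 higher and 87 lower. None of the 18 belonged to the interferon-induced lists. The 15 highest genes under the naming rule included the inflammatory genes CXCL8, SOD2, SAA1, SAA2, ICAM1 and BIRC3, the galectin LGALS1, and the protease and inhibitor genes PLAU and CST6. The 10 lowest included 4 histone genes and 4 genes of DNA repair or mitosis. Of the 15 highest, CXCL8, BIRC3, PLAU, CST6, IGFBP5, SNHG21 and LY6K reached 20 CPM only in the top-score cells. They had to be higher there, as did all 124 measured genes that entered in this way. Other genes entered only through the compared cells and had to be lower in the top-score cells.

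Interferon-induced genes outside the score were taken as 4 lists with 69 genes, of which 67 were in the files and 23 reached 20 CPM. Of these 23, 12 were higher and 11 lower, against 37.4% of all genes above 0. None passed 1.5-fold in either direction, which is near the shares of all genes, 0.265% higher and 2.42% lower. ISG20, IFIH1 and SHISA5 entered the 23 only through the top-score cells. Over the 19 genes that reached 20 CPM across all cells the median log2 ratio was -0.00025, against -0.08 for all genes measured so. The summed level of the 67 genes was 2119 CPM in the top-score and 1966 CPM in the compared cells. As a median over cells it was 20.6 per 10000 UMIs (quartiles 17.6 to 24.1) in the top-score cells and 19.5 (17.0 to 22.3) in the compared cells, so the 2 sets largely overlapped.

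Among antiviral effectors, MX1, a GTPase that traps viral nucleocapsids, lay at 23.3 CPM in the top-score cells and 24.1 CPM in the compared cells. EIF2AK2, the kinase PKR that halts translation on sensing double-stranded RNA, lay at 121 and 126 CPM. IFITM3, which blocks viral entry through endosomes, lay at 387 and 343 CPM (log2 ratio 0.17), and ISG20, an exonuclease, at 24.3 and 18.0 CPM (0.43). OAS1, which makes the messenger that activates RNase L, was below the minimum at 15.8 and 12.9 CPM. These levels differed little between the sets and none passed 1.5-fold.

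IFIT2, the partner of IFIT1 and IFIT3, was the exception below the minimum and is named after its value was seen. It lay at 10.6 CPM in the top-score cells, 4.66 between and 3.64 in the compared cells, a 2.92-fold difference (2.23 to 3.81) resting on 87 UMIs. These came from 47 top-score cells, and 16 of them from a single cell; without that cell the log2 ratio went from 1.55 to 1.28. RSAD2 (viperin) had 28 UMIs in 11 top-score cells, 15 of them in a single cell. The 17 antiviral genes below the minimum, summed, were 1.29-fold higher (1.20 to 1.39).

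For ISG15 conjugation, UBE2L6, the conjugating enzyme, lay at 91.5 and 74.4 CPM (log2 ratio 0.30) and USP18, the protease that removes ISG15, at 16.0 and 12.3 CPM. Among nucleic acid sensors, the adaptor STING (TMEM173) lay at 31.3 and 25.9 CPM, the sensor MDA5 (IFIH1) at 20.3 and 19.1 CPM, and MAVS, the adaptor of the RNA sensors, at 17.7 and 20.3 CPM. The sensor list summed to 1.03-fold (0.951 to 1.11), an interval that includes 1. SP100, a nuclear body protein, had a log2 ratio of 0.29 and TRIM14 one of -0.29, the widest values of the remaining interferon-induced genes.

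Signalling genes showed no common direction. Of 18 genes 11 reached the minimum, with 5 higher and 6 lower and a median log2 ratio of -0.01. IRF1, a transcription factor induced by interferon gamma and by NF-kB, lay at 116 CPM in the top-score and 91.4 CPM in the compared cells (log2 ratio 0.34), and IFNGR2, a chain of the interferon gamma receptor, at 61.5 and 50.1 CPM (0.30). The 21 interferon genes themselves had no UMI in the top-score cells, which allows a summed level of up to 0.366 CPM (3 counts), and 7 UMIs in the compared cells. Interferon gene expression was thus not detectable in the top-score cells at this depth.

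**Figure D2:**
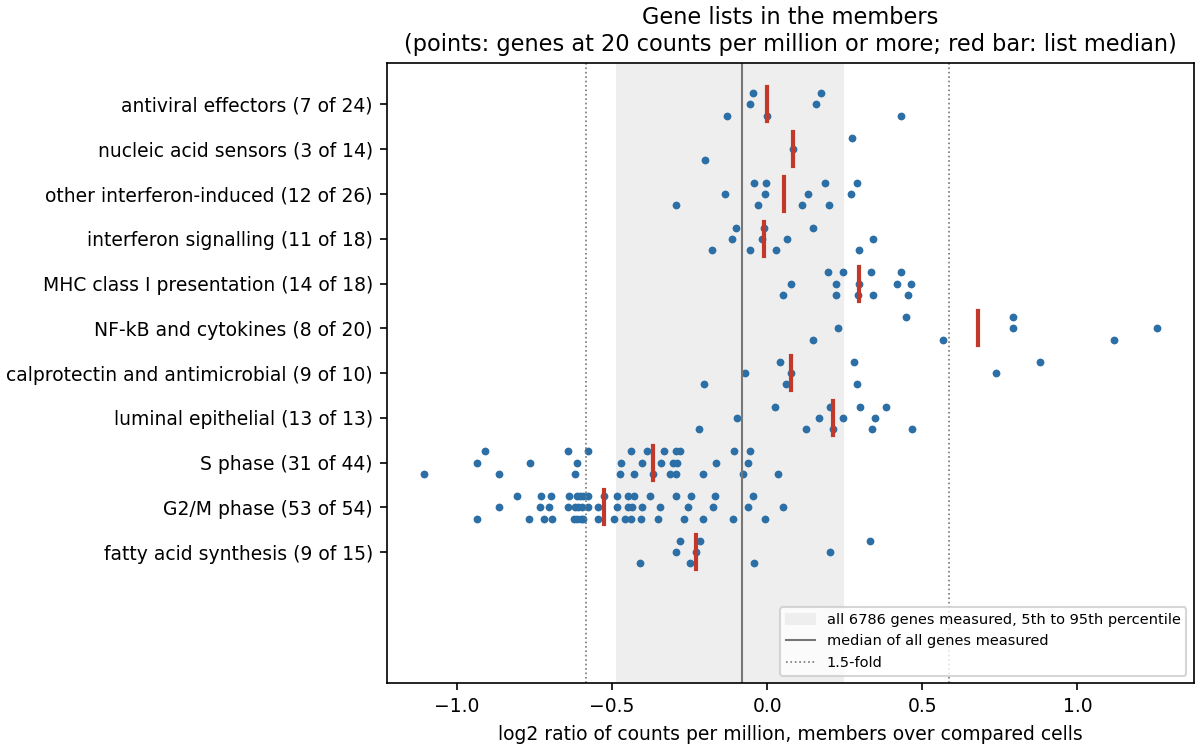
Log2 ratio of CPM in top-score over compared cells for each gene at 20 CPM or more, by list, with the list median as a red bar. In brackets are the genes measured and the genes listed. The antiviral effector, nucleic acid sensor, other interferon-induced and interferon signalling lists sit slightly above the median of all genes. The ISG15 conjugation list is not shown. The MHC class I and NF-kB lists lie to the right, and the S phase and G2/M lists to the left.

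Genes of MHC class I antigen presentation were modestly higher. These genes cut peptides in the immunoproteasome, carry them into the endoplasmic reticulum and display them at the surface. Of 18 listed genes 14 reached the minimum, and all 14 had a log2 ratio above 0, with a median of 0.29, against 37.4% of all genes above 0, and none reached 1.5-fold. Summed, they were 1.22-fold higher (1.20 to 1.23), at 4294 against 3529 CPM. Of the immunoproteasome, PSMB9 lay at 166 CPM in the top-score, 146 between and 121 in the compared cells (log2 ratio 0.46), PSMB10 at 66.7, 61.5 and 48.6 CPM (0.46), and PSMB8 at 274, 254 and 217 CPM (0.33). The proteasome activator PSME2 lay at 372, 322 and 275 CPM (0.43). All 4 were highest in the top-score and lowest in the compared cells.

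The peptide transporter TAP1 lay at 29.6 and 22.1 CPM (0.42), while its partner TAP2 (0.08) and the loading chaperone TAPBP (0.05) were nearly level. HLA-B lay at 524 and 414 CPM (0.34) and HLA-C at 530 and 454 CPM (0.22). Reads of near-identical HLA genes may be shared, so single HLA values are uncertain. The class I light chain B2M lay at 1056 and 862 CPM (0.29). NLRC5, the class I transactivator, was below the minimum and level at 10.5 and 10.3 CPM. The widest differences within the pathway were thus at the proteasome and TAP1. As a median over cells the list took 40.8 per 10000 UMIs in top-score and 34.0 in compared cells, with overlapping quartile ranges (33.6 to 48.1 and 28.3 to 40.5).

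Several targets of NF-kB were higher. Of 20 listed genes 8 reached the minimum, of which RELB, BIRC3 and CXCL8 did so only through the top-score cells and had to be higher there. The 5 genes at 20 CPM across all cells (SOD2, LCN2, ICAM1, NFKBIA and TNFAIP2) all had log2 ratios above 0, with a median of 0.57, against 37.2% of all genes above 0 at that minimum. The list summed to 1.51-fold (1.48 to 1.54), and to 1.44-fold without the top-score cell that held most of its UMIs. LCN2 (lipocalin 2, which binds bacterial iron carriers) lay at 1198, 981 and 808 CPM in the 3 sets. ICAM1, an adhesion molecule for leukocytes, lay at 54.5, 35.8 and 31.4 CPM, and NFKBIA, the feedback inhibitor of NF-kB, at 72.0, 56.5 and 52.8 CPM. The serum amyloid genes of the antimicrobial list, SAA1 (376, 275 and 205 CPM) and SAA2 (84.7, 70.4 and 50.8 CPM) were ordered in the same way.

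Other increases rested on few cells. SOD2, the mitochondrial superoxide dismutase, had 1938 UMIs in the top-score cells, of which 508 (26.2%) came from a single cell of score 8.41. Its log2 ratio was 1.12 with that cell and 0.69 without it. CXCL8 (interleukin 8) was seen in 31 top-score cells, at 22.8 CPM against 9.56 CPM, and 36 of its UMIs came from that same cell. With ISG15 left out of the score its log2 ratio was -0.35 and that of SOD2 -0.0093. BIRC3, an inhibitor of apoptosis, went from 0.79 to 0.40 without its top cell. IGFBP5, the highest gene of all at a log2 ratio of 1.70, was seen in 23 top-score cells, and 50.2% of its UMIs came from a single cell; without it the ratio was 0.70. CXCL1, below the minimum and named after its value was seen, had 70 UMIs in 14 top-score cells. LGALS1 (galectin 1) rested less on a single cell: it lay at 403, 308 and 221 CPM, and its log2 ratio of 0.87 became 0.83 without its top cell.

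Cell cycle genes were lower in the top-score cells. Of 53 measured G2/M genes 52 were lower and 22 passed 1.5-fold, with a median log2 ratio of -0.52; 2.42% of all genes passed 1.5-fold lower. Of 31 measured S phase genes 30 were lower and 8 passed 1.5-fold, with a median of -0.37. TOP2A, which untangles replicated DNA, lay at 138, 191 and 241 CPM in the top-score, intermediate and compared cells, and the proliferation marker MKI67 at 79.4, 108 and 135 CPM. RRM2, the small subunit of ribonucleotide reductase, lay at 83.0, 104 and 141 CPM. The mitotic genes CDC20 (131 and 132 CPM) and CCNB1 (143 and 147 CPM) were level, so the lists did not move as a block.

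Histone genes were among the lowest: HIST1H3B lay at 9.52, 18.7 and 29.2 CPM (log2 ratio -1.62), HIST1H1B at 57.1, 96.0 and 150 CPM (-1.39) and HIST2H2AC at 20.4, 30.2 and 47.0 CPM (-1.20). HIST3H2A went the other way, at 42.7, 29.3 and 22.7 CPM (0.91). Replication-dependent histone transcripts mostly lack a poly(A) tail, so the method captures them in part only. NEIL3, a DNA glycosylase, had a ratio of -1.21 and the helicase BRIP1 one of -1.11. The kinesin KIF15 had one of -1.09 and the polymerase POLQ one of -1.08. HIST1H3B, NEIL3, BRIP1, KIF15 and POLQ reached 20 CPM only in the compared cells, so they had to be lower in the top-score cells. With each cell thinned to 5000 UMIs, 48.6% of top-score cells (140 of 288, exact binomial interval 42.7 to 54.5%) lay at or below the library median of both cell cycle lists, against 28.4% of compared cells (409 of 1442, 26.0 to 30.8%). These intervals cover the counting of cells within 1 library only. No kept cell was too shallow for this thinning.

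The 973 cells low in both lists were also ranked on their own. They were picked by their cell cycle counts, so their S phase and G2/M ratios say nothing about those lists. In them MHC class I lay at 1.21-fold, the NF-kB list at 1.73-fold and the interferon-induced genes outside the score at 1.04-fold.

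Gene span moved with the ratio as well. In 6599 measured protein-coding genes, split into quintiles by genomic span, the median log2 ratio was 0.11 in the shortest quintile (up to 11526 bases), then 0.02, -0.08, -0.19 and -0.28 in the longest. MALAT1 lay at 6971 and 9797 CPM (-0.49). The 6 score genes lie in the 2 shortest quintiles, with spans of 2710 bases for BST2 and 13403 for ISG15. Relative to the median of their own span quintile, the G2/M genes had a median of -0.41 and the MHC class I genes one of 0.21. Over the genes at 20 CPM across all cells, the 5 NF-kB genes had a median of 0.46 and the 19 interferon-induced genes one of 0.08. The part of depth, span and nuclear RNA in the list differences was not tested. When cells were ranked by scores thinned to 5000 UMIs, the G2/M list lay at 0.948-fold, the S phase list at 0.897-fold and the NF-kB list at 1.26-fold, all nearer to 1. The thinned scores held many ties, broken by the deposited order of cells.

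Along the score in deciles of cells, the lists moved gradually except at the top. MHC class I lay at 3320 CPM in the lowest decile, 3727 in decile 5 and 4294 in the top-score cells. NF-kB genes stood at 1205 CPM in the lowest decile, 1530 in decile 9 and 1896 in the highest. The G2/M list was highest in decile 3 at 6121 CPM and lowest in the top-score cells at 4253. The interferon-induced genes outside the score stayed between 1942 and 2010 CPM over 9 deciles and reached 2119 CPM in the last. SOD2 lay between 101 and 130 CPM in the lower 9 deciles against 237 in the top-score cells.

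**Figure D3:**
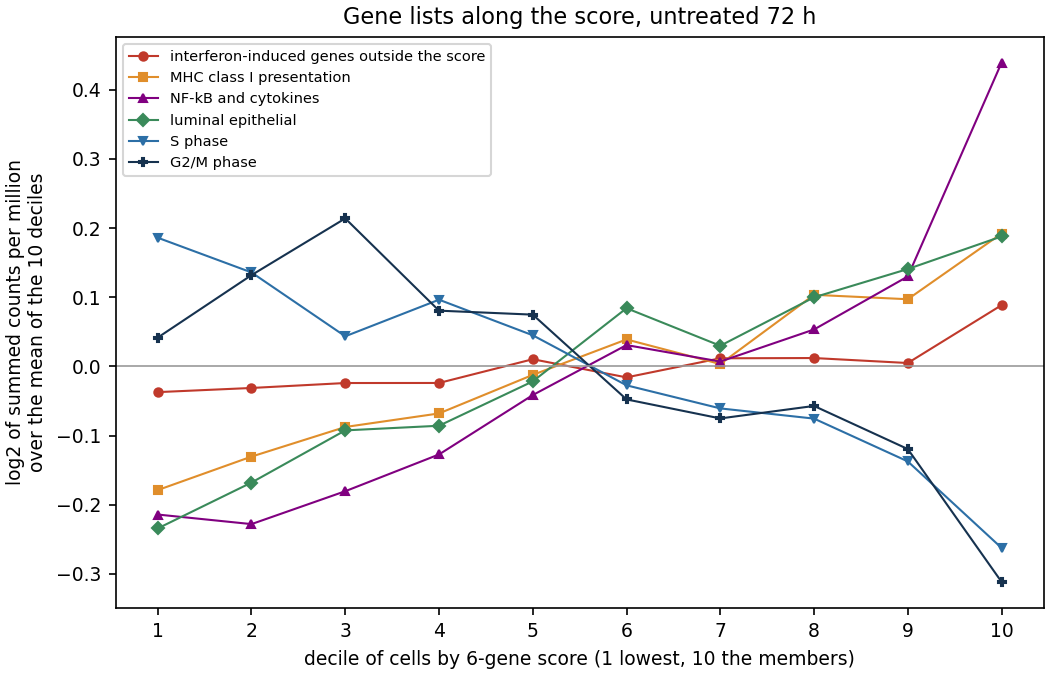
Summed CPM of 6 gene lists in deciles of the untreated 72 h cells ordered by score, as log2 over the list's mean of the 10 deciles. MHC class I, NF-kB and luminal genes are higher towards the top of the score, S phase and G2/M genes lower, and the interferon-induced genes outside the score stay nearly flat until the last decile.

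Most luminal epithelial genes were also higher. Of 13 luminal epithelial genes, all measured, 11 were higher, against 37.4% of all genes above 0. Their median log2 ratio was 0.21 and their summed ratio 1.23 (1.22 to 1.24). The keratins KRT19 (2756 and 2116 CPM), KRT8 (1119 and 880 CPM) and KRT18 (3427 and 2709 CPM) and the tight junction protein CLDN3 (119 and 86.0 CPM) led it. Basal keratin and adhesion genes were higher too. Of 6 measured 4 were higher and 2 lower, with a median log2 ratio of 0.20, and the list summed to 1.14-fold (1.10 to 1.17). KRT5 had a log2 ratio of 0.29, KRT17 one of 0.22 and the integrin ITGA6 one of -0.42. The increase was thus not particular to luminal genes. The calprotectin gene S100A8 lay at 2112 and 1728 CPM, while its partner S100A9 was level at 11677 and 11198 CPM. Among glycolytic genes LDHA lay at 687 and 522 CPM. The ER chaperone (median log2 0.0029), PERK-ATF4 (-0.04), heat shock (-0.0019) and metallothionein (-0.01) lists showed no shift, and no gene of them passed 1.5-fold. None of the 8 mesenchymal genes and none of the 19 genes of other cell types reached 20 CPM.

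ACACA, the cytosolic target enzyme of the inhibitor used elsewhere in the study, lay at 50.7 CPM in the top-score and 61.5 CPM in the compared cells (log2 ratio -0.28, ratio 0.741 to 0.913). ACACB, its mitochondrial counterpart, had 29 UMIs in the top-score and 187 in the compared cells, with an interval of 0.577 to 1.31 that includes 1. Of 9 measured fatty acid synthesis genes 7 were lower, against 62.6% of all genes, with a median of -0.23. The list summed to 0.997-fold (0.973 to 1.02), so median and sum differ. The malic enzyme ME1 (-0.41) and ACLY (-0.29) were lower and ELOVL1 (0.33) was higher.

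The readout depended on which score gene ranked the cells, in a comparison chosen after the data were seen. Ranked by ISG15 alone, interferon-induced genes outside the score lay at 0.995-fold, MHC class I at 1.16-fold, NF-kB at 1.37-fold and G2/M at 0.682-fold. Ranked by BST2 alone, they lay at 1.10, 1.20, 1.25 and 0.814-fold. Ranked by the other 4 genes together, they lay at 1.09, 1.08, 1.09 and 1.29-fold. The G2/M list was thus lower with ISG15 or BST2 and higher with the remaining 4. Those 4 genes had a mean of only 0.417 UMIs per cell in cells thinned to 20000 UMIs. Many cells therefore tied with no UMI of them, and ties were broken by the deposited order of cells. SOD2 had a log2 ratio of 1.19 with ISG15, -0.27 with BST2 and -0.04 with the 4. SAA1 followed ISG15 (0.92, against 0.22 and 0.22), and PSMB9 was higher with ISG15 (0.41) and BST2 (0.36) but level with the 4 (0.06). IFIT2 was higher with the 4 (1.56) and with ISG15 (1.10) and level with BST2 (-0.02).

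**Figure D4:**
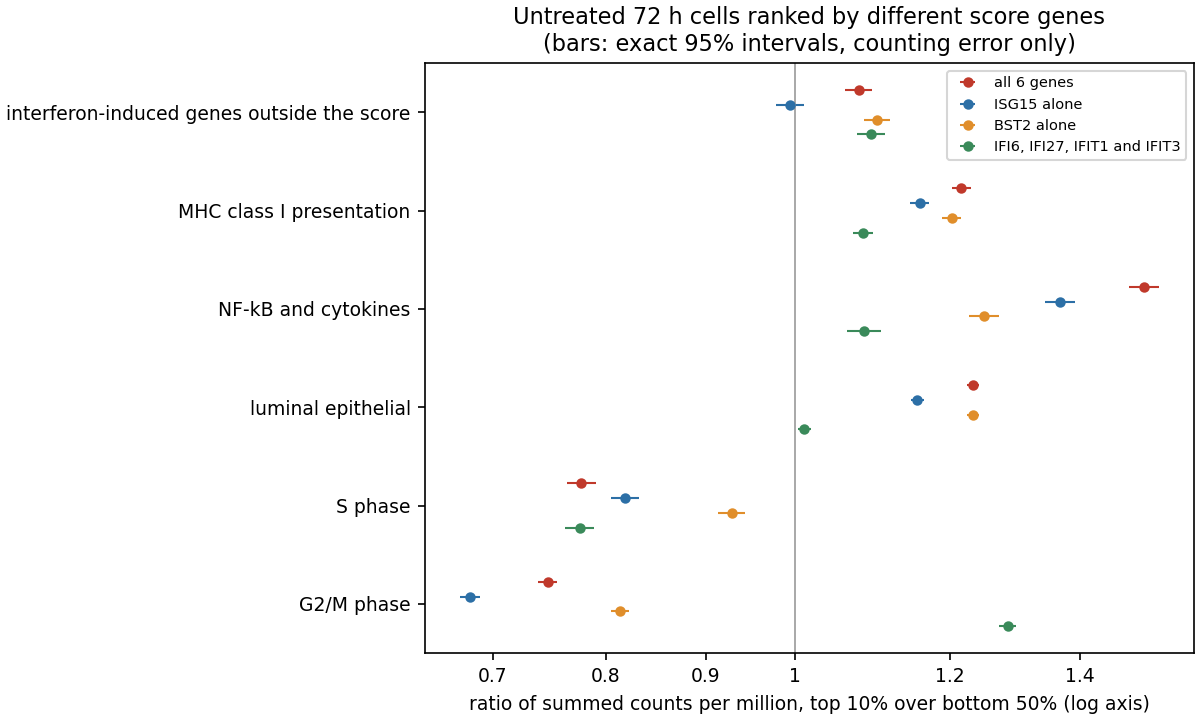
Ratio of summed CPM, top 10% over bottom 50% of untreated 72 h cells (log axis), when cells are ranked by all 6 score genes or by subsets. Bars are exact 95% intervals for counting error. MHC class I stays above 1 with every score, while the G2/M list changes side with IFI6, IFI27, IFIT1 and IFIT3.

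The same rule was applied to each other library by its own scores. It gave 370 top cells at 0 h, 300 at 6 h of PF0517515, 187 at 72 h of PF0517515 and 346 in recovery. At least 1.5-fold higher were 20 of 6316 genes at 0 h (0.317%), 20 of 6755 at 6 h (0.296%), 43 of 6357 at 72 h of inhibitor (0.676%) and 25 of 6306 in recovery (0.396%). Lower were 115 (1.82%), 18 (0.266%), 52 (0.818%) and 563 (8.93%). Interferon-induced genes outside the score lay at 1.05, 1.08, 1.05 and 1.05-fold in that order, close to the 1.08-fold of the untreated 72 h cells. MHC class I lay at 1.25, 1.26, 1.17 and 1.28-fold. NF-kB genes lay at 1.38, 1.53, 1.22 and 1.16-fold, and in recovery their median log2 ratio was -0.18, opposite in sign to the sum. The median of all measured genes in recovery was -0.12.

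PSMB9 (0.41 to 0.66), LGALS1 (0.68 to 0.87), SAA1 (0.36 to 1.13) and SOD2 (0.27 to 1.12) had log2 ratios above 0 in all 5 libraries. CXCL8 ran from -1.41 in recovery to 1.26 in the untreated 72 h cells. Of the 15 highest genes named, 9 were higher in all 5 libraries and all 15 in at least 4. Of the 10 lowest, 6 were lower in all 5 and all 10 in at least 4. The 5 include the untreated 72 h library, which chose these genes, so their direction in it was fixed beforehand. The share of all genes that kept their direction was not counted. The S phase and G2/M lists lay at 0.882 and 0.828-fold at 0 h, 0.858 and 0.877 at 6 h, and 0.882 and 0.848 in recovery. At 72 h of PF0517515 they lay at 1.08 and 0.976-fold, against 0.777 and 0.747 in the untreated cells of the same time. The luminal list lay at 1.07 to 1.11-fold in the other libraries, below the 1.23-fold at 72 h untreated. None of these differences between libraries could be tested.

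**Figure D5:**
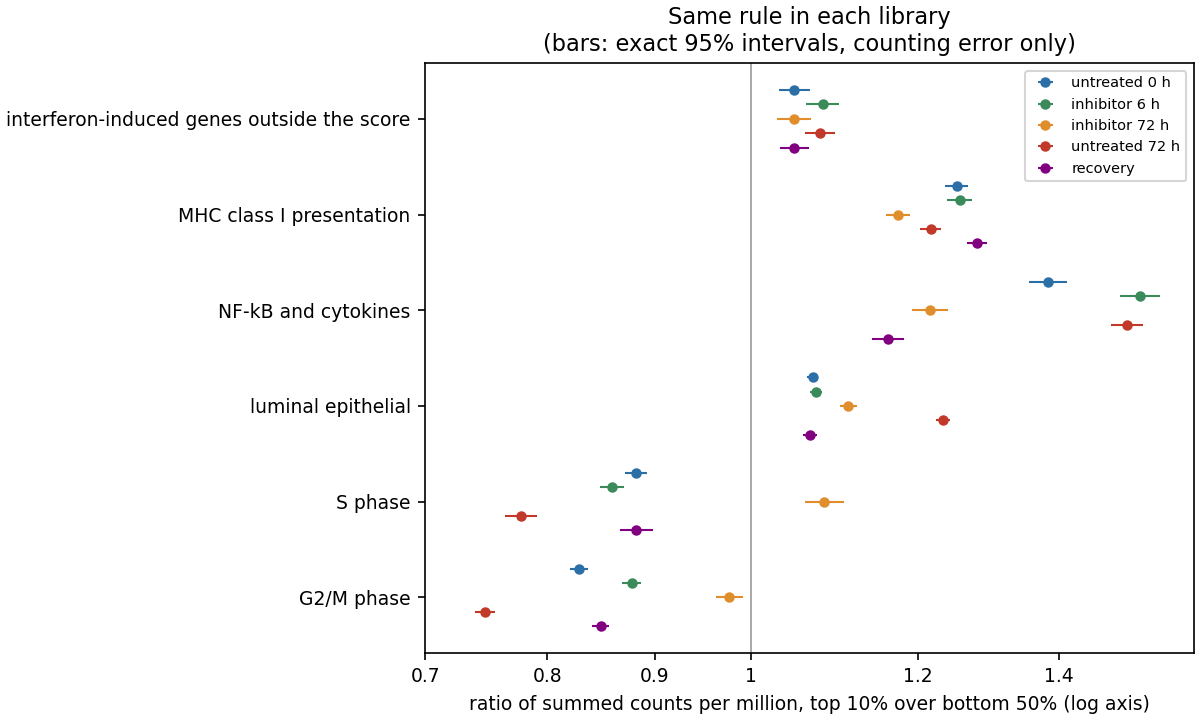
Ratio of summed CPM, top 10% over bottom 50% of each library's cells by its own 6-gene score (log axis), for 6 gene lists. Bars are exact 95% intervals for counting error. MHC class I lies between 1.17 and 1.28 in all 5 libraries, and interferon-induced genes outside the score between 1.05 and 1.08.

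The score itself differed more between libraries than the other interferon genes did. The 6 genes summed to 85.2 CPM at 0 h, 70.9 at 6 h, 131 at 72 h of PF0517515, 203 at 72 h untreated and 258 in recovery. ISG15 lay at 64.4, 54.7, 81.1, 118 and 148 CPM and BST2 at 11.9, 10.4, 32.5, 63.9 and 88.9 CPM in the same order. The other interferon-induced genes lay at 1475, 1389, 1791, 1992 and 2044 CPM. At or above the cut of 3.66 lay 15 cells at 0 h (0.405%, exact binomial interval 0.227 to 0.668%) and 12 at 6 h (0.401%, 0.207 to 0.699%). At 72 h of PF0517515 there were 40 (2.14%, 1.53 to 2.90%). The 288 at 72 h untreated (9.98%) were fixed by the rule, which set the cut in that library, so no interval is given. In recovery there were 674 (19.5%, 18.2 to 20.8%). Thinned to 5000 UMIs per cell, where the cut means 2 or more score UMIs, the shares were 8.03%, 5.51%, 14.4%, 25.3% and 35.6%. The intervals cover the counting of cells within a library and not the spread between cultures, so no difference between libraries can be read from them. Treatment and culture time cannot be told apart from the library, since each group is 1 library.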

How the data were processed

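Single-cell RNA of 5 MDA-MB-468 libraries was made with the 10x 3′ v3.1 kit, per the labels' protocols. The authors deposited UMI counts, whole numbers for 36601 features per barcode. The submitters' processing notes name Cell Ranger 7.1.0 and the GRCh38 build. Which annotation was used, and whether reads in introns were counted, is not stated in the sources at hand. No doublet caller was run, and cells were not clustered.

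Counts were summed over the cells of a set and divided by the total without the 6 score genes (CPM); for the levels of the score genes and of whole libraries, all genes were in the total. Genes at 20 CPM in either set were measured and called past 1.5-fold. Intervals of ratios are exact (Clopper-Pearson on the share that one count takes of both). Named are the 15 highest and 10 lowest log2 ratios with the same sign under equal weight per cell (no clone-style, LINC or MT- names), up to 4 genes per list with the widest ratios, the score genes, ACACA and ACACB; a selection is printed. Other list genes were named after their values were seen. The members and the gene lists were chosen with earlier results of these data known. The calculation was tested on simulated counts for this comparison: of 200 genes changed among 6662, all 200 came out in the right direction, and 95.4% of intervals held the true ratio. The simulated sums held counting error only, the error the intervals assume, and no spread between cells. They check the arithmetic and not how far the intervals hold for real cells. Spans come from GENCODE 29. Python 3.11.15, numpy 2.4.6 and scipy 1.17.1 were used. The closing section gives the effect of 16 alternatives and 4 added later. A gene with no UMI in a set was given 3 counts there, as a bound, and called only in the direction that this bound allows.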

Additional observations from a re-analysis of the deposited data

Results flagged for a closer look

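Some values pointed one way in the untreated 72 h cells and the other way when the same rule was applied to another library, with counting intervals on opposite sides of 1. The genes looked at were the 15 highest and 10 lowest and the measured interferon-induced, interferon signalling, MHC class I and NF-kB genes. Each group is 1 library, so these differences between libraries were not tested.

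The S phase list summed to 0.777-fold in the top-score cells and to 1.08-fold (1.06 to 1.11) in the top 10% at 72 h of PF0517515. HIST2H2AC had log2 ratios of -1.20 and 0.33 in these libraries, and KIF15 had -1.09 and 0.36. The intervals of both genes at 72 h of PF0517515 began close to 1, at 1.00 and 1.01-fold. PLSCR1 had 0.16 and -0.085, JAK1 -0.10 and 0.11, and TNFAIP2 0.23 and -0.17.

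In recovery 6 of 8 measured NF-kB genes were lower, and 5 of them were on the opposite side from the untreated 72 h cells. The median log2 ratio of all measured genes was also below 0 there, at -0.12, and the summed NF-kB list was higher. The 6 of 8 is therefore not read as a result about the list. CXCL8 had a log2 ratio of -1.41 there, on 36 UMIs, against 1.26 in the untreated 72 h cells. ICAM1 had -0.49 against 0.79, BIRC3 -0.41 against 0.79, NFKBIA -0.22 against 0.45 and TNFAIP2 -0.11 against 0.23. Without the top-score cell that held most of the BIRC3 UMIs, the untreated value was 0.40. IRF1 had -0.21 against 0.34, and SP100 had -0.19 against 0.29.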

How the results depend on the processing

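Depth limits the score: a cell is ranked on a handful of UMIs. Ranking cells thinned to 5000 UMIs gave 2 genes at least 1.5-fold higher and 2 lower (main 18 and 164), an interferon-induced sum of 1.05-fold and an MHC class I sum of 1.11-fold. The G2/M, S phase and NF-kB sums went from 0.747, 0.777 and 1.51-fold to 0.948, 0.897 and 1.26-fold. For members set at the top 5%, 49 genes were higher and 496 lower with MHC class I at 1.29-fold; at the top 20% they were 10 and 80, with sums of 1.045 (interferon-induced) and 1.18-fold. Against all other cells the counts were 11 and 56 and MHC class I 1.16-fold. The score without ISG15 gave 6 and 51, with sums of 1.13 and 1.20-fold. Median-of-ratios scaling gave 30 and 87, 1.14 and 1.29-fold. Sums of thinned cells gave 91 and 403 and an interferon-induced sum of 1.12-fold. Cells low in both cell cycle lists, which are fewer, gave 61 and 356 and 1.04-fold. With no expression minimum the counts were 3192 and 2118, and with a minimum of 50 CPM 5 and 62.

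Of the scores chosen after seeing the data, ISG15 alone turned the interferon-induced sum to 0.995-fold, with MHC class I at 1.16-fold. BST2 alone gave 5 genes higher and an interferon-induced sum of 1.10-fold. IFI6, IFI27, IFIT1 and IFIT3 gave 19 genes lower and MHC class I at 1.08-fold. MHC class I stayed above 1 under all 17 alternatives that change its sum. A stricter mitochondrial limit of 10%, dropping the deepest 5% of cells, keeping those of at least 20000 UMIs, counting the score genes in the totals, taking ribosomal protein and mitochondrial genes out of them, and weighting cells equally gave 17 to 26 genes higher and 154 to 201 lower, with interferon-induced sums of 1.06 to 1.09-fold and MHC class I sums of 1.21 to 1.23-fold.

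Log2 ratios changed sign for CXCL8 (-0.35), SOD2 (-0.0093) and SNHG12 (-0.013) with the score without ISG15. With BST2 alone they did for IGFBP5 (-2.12), CXCL8 (-0.45), SOD2 (-0.27), BIRC3 (-0.25) and SNHG12 (-0.18). With IFI6, IFI27, IFIT1 and IFIT3 they did for SOD2 (-0.039), CST6 (-0.096), TOP2A (0.25) and MKI67 (0.36). Among cells low in both cell cycle lists they did for KIF15 (0.11), TOP2A (0.14) and MKI67 (0.20), genes tied to the counts that picked those cells, so this says nothing about stability. For the other sign changes the cause was not tested. Of 32 named genes past 1.5-fold, 5 stayed past it with the thinned score and 29 without the member cell holding most of the gene's UMIs. No paired analysis was possible because each group has a single library.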

Other observations

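A few single cells stood far above the rest, in libraries other than the untreated 72 h one as well. In recovery 1 cell of 22035 UMIs had a score of 98.0, with 210 UMIs of ISG15, 12 of IFNL1 (interferon lambda 1), 43 of SOD2, 7 of IFIT2 and 118 of LCN2, but only 3 of BST2 and 1 each of IFIT1 and IFIT3. The next score in that library was 18.2. At 72 h of PF0517515, 1 cell of 37525 UMIs had a score of 33.8, with 61 UMIs of IFIT3, 46 of ISG15, 40 of IFIT2, 25 of OASL and 20 of IFIT1, and none of BST2. Its level of interferon-induced genes outside the score was 62.6 per 10000 UMIs, against a library median of 17.7. It held 86.2% of the OASL UMIs of that library's top 10%.

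In the untreated 72 h library the highest score, 10.2, belonged to a cell of 5880 UMIs with 6 UMIs of ISG15 and none of the other 5 score genes. It nevertheless held 15 UMIs of RSAD2, 11 of ZC3HAV1, 5 of HERC5, 4 of IFIH1, 45 of SOD2 and 8 of ICAM1. Its level of interferon-induced genes outside the score was 107 per 10000, against a median of 19.8. These cells are given as values, and what sets them apart was not tested.

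Interferon lambda transcripts were rare in every library. IFNL1 had 119 UMIs in 90 recovery cells, 12 in 12 cells at 72 h of PF0517515, 7 in 7 cells at 72 h untreated and 1 at 0 h. Of the 7 untreated 72 h UMIs, none lay in a top-score cell, but 7 UMIs are too few to compare with that set's 10% of cells. In recovery 22 of the 119 lay in that library's top 10%, and 12 of these came from the single cell of score 98.0. IFNL2 had 30 UMIs in recovery, 3 of them in its top 10%, and 18 at 72 h of PF0517515. At 72 h untreated it had 9, none in a top-score cell, and at 6 h of PF0517515 it had 1.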
